A study of Mus musculus with 9 samples.

Results

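The glucose uptake and glycolysis control enzymes are a set of 10 genes chosen by their role: the glucose transporter Slc2a1, the hexokinases Hk1 and Hk2, the phosphofructokinases Pfkm, Pfkl and Pfkp, the phosphofructokinase activator enzyme Pfkfb3, and the later enzymes Pgk1, Pkm and Ldha. Each was found as a transcript cluster (the probes grouped for 1 transcript) annotated with that symbol alone, so that all 10 were measured among 30050 genes. Where a gene had several such clusters, the brightest on average was used. The RNA came from cells labelled HL-1, an immortalized mouse cell line of atrial heart muscle, which were grown in serum-containing medium. The Con group received phosphate-buffered saline, the DOX group 0.3 µM doxorubicin, and the DOX_IFNg group 0.3 µM doxorubicin with 20 ng/ml interferon gamma, with 3 arrays each. Doxorubicin is an anthracycline drug that traps topoisomerase II on DNA, and interferon gamma is an inflammatory cytokine. How long the cells were treated is not stated in the labels. No group with interferon gamma alone was analysed here, and a single cell line limits what the groups can stand for.

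Glycolysis converts glucose to pyruvate in the cytosol. Slc2a1 (GLUT1) carries glucose into the cell, hexokinases trap it as glucose 6-phosphate, and phosphofructokinase performs the committed step. That step is stimulated by fructose 2,6-bisphosphate, which Pfkfb3 makes. Adult heart muscle relies mainly on fatty acids, whereas fetal, stressed and dividing cells use more glucose, and the muscle form Pfkm dominates phosphofructokinase in striated muscle.

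The values were log2 expression values, on which a difference of 1 is a 2-fold change. Levels of different genes come from different probes and were not compared with each other. The 9 arrays had medians of 4.08 to 4.17. The limit for a dim gene was 4.71, the 95th percentile of odorant, pheromone and trace amine receptor genes, and the overall mean of each of the 10 genes lay above it. Pfkp, at 4.73, lay closest. The labelled cell type was not clearly borne out by its markers: in Con, Myh6 (4.29), Nppa (3.97), Myl7 (4.12) and Gata4 (4.03) were dim. Of 11 cardiomyocyte markers, 3 lay above the limit: Tnnt2, cardiac troponin T (7.94), Nkx2-5 (5.33 to 5.47) and, barely, Actn2 (4.72 to 4.76). The skeletal muscle factors Myog (8.18) and Myod1 (6.03) lay above it, as did 5 of 11 skeletal muscle markers in all. The skeletal markers Myf5 (3.84 to 3.92), Myf6 (3.36 to 3.57) and Ckm (4.36 to 4.42) were dim. Endothelial markers lay above it in 0 of 7 cases and immune markers in 1 of 8, against 4 of 8 fibroblast markers. The cells are therefore referred to below as those labelled HL-1. Arrays are called by group and replicate number below, so that Con 1 is replicate 1 of Con. Any 2 of the 6 arrays Con 1, DOX 1, DOX 2, DOX 3, DOX_IFNg 1 and DOX_IFNg 2 had 82 to 186 exactly identical values in common, whereas any pair that included Con 2, Con 3 or DOX_IFNg 3 had 1 to 17. The labels name no batch.

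Doxorubicin-treated cells carried more RNA of the glucose transporter Slc2a1 and of Pfkfb3, and less of Pfkm, Pfkl, Pgk1 and Ldha. Pfkm fell 3.58-fold, Pgk1 2.04-fold, Ldha 1.56-fold and Pfkl 1.47-fold, while Pfkfb3 rose 1.91-fold and Slc2a1 1.29-fold. Hk1, Hk2, Pfkp and Pkm did not pass the test. Thus 2 of the 10 genes were called higher and 4 lower, at an adjusted p under 0.05 by limma over all genes. Of all genes tested, 15.6% were called, 8.06% higher and 7.53% lower, and of the genes above the dim limit 33.1%. The arrays of DOX and Con did not overlap for 7 of the 10 genes, against 32.9% of all genes. That share includes dim genes, and it was not computed for the genes above the dim limit alone. The median difference of the 10 genes was -0.12, against -0.01 over all genes. These 10 genes were chosen with earlier results known, so their count is a description. The same 4 lower and 2 higher counts were obtained in each of 18 alternative settings.

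**Figure D1:**
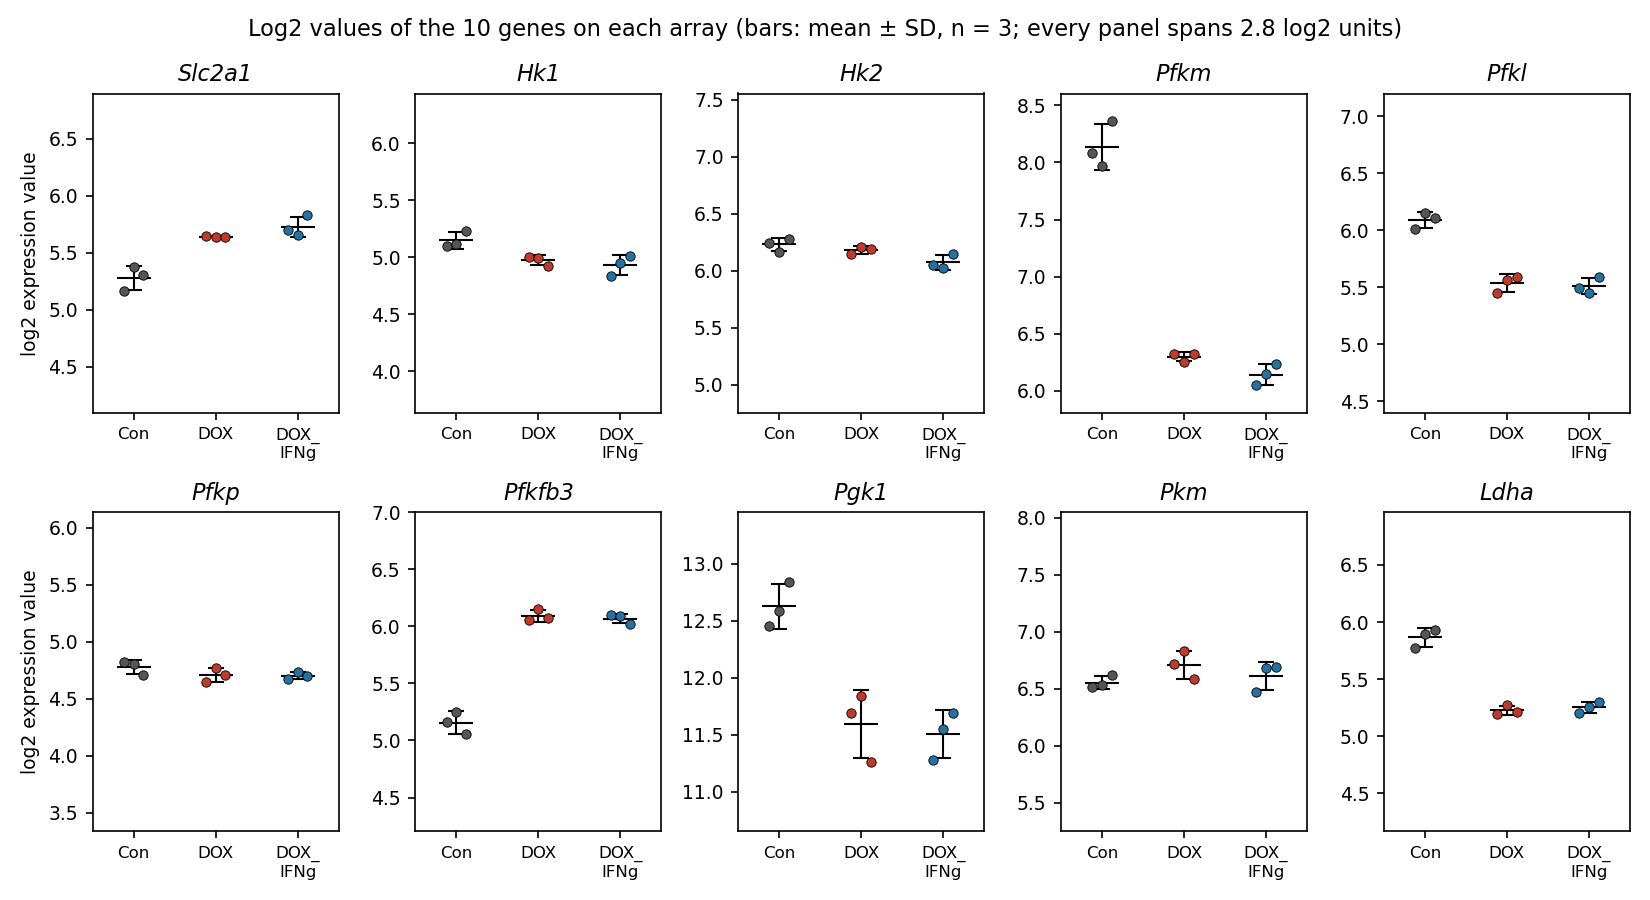
Log2 expression value (vertical axis) of each of the 10 genes on the 3 Con, 3 DOX and 3 DOX_IFNg arrays; dots are arrays, placed side by side in no order, and bars are the mean ± SD (n = 3). Pfkm sits between 7.97 and 8.36 on the Con arrays and between 6.05 and 6.32 on the treated arrays, while Pfkfb3 sits between 5.05 and 5.25 on Con and above 6.0 on all treated arrays.

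Because these genes moved in both directions, the DNA just upstream of the 6 called genes is shown, taken from the RefSeq promoter table of build GRCm38.p6. The table matched all 10 genes, with 17 start sites. For each called gene the first start listed is given as the 250 bases before it, 5′ to 3′ on the gene's strand. Capitals mark ACGTG or GCGTG, the core of the hypoxia response element bound by HIF factors, on either strand (a match on the other strand reads CACGT or CACGC), and CACGTG, the E-box bound by Myc and related factors, which contains ACGTG on both strands. The windows lie at chr4:119108495-119108744 (plus strand) for Slc2a1, chr2:11553930-11554179 (minus) for Pfkfb3, chr15:98092339-98092588 (plus) for Pfkm, chr10:78009808-78010057 (minus) for Pfkl, chrX:106186850-106187099 (plus) for Pgk1 and chr7:46845554-46845803 (plus) for Ldha.
Slc2a1: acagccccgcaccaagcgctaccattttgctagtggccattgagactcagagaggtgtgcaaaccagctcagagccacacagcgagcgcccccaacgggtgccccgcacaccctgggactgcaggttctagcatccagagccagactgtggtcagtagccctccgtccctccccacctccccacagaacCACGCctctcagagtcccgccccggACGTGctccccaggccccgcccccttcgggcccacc
Pfkfb3: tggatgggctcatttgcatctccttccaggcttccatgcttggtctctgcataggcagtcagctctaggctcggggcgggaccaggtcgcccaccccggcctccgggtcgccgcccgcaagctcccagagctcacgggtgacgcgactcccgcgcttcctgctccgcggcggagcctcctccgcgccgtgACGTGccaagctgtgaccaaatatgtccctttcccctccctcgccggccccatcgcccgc
Pfkm: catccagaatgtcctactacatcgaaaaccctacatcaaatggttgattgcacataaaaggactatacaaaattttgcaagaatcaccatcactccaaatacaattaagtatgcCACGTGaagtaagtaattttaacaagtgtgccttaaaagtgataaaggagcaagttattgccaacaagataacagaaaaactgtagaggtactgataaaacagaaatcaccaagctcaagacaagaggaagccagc
Pfkl: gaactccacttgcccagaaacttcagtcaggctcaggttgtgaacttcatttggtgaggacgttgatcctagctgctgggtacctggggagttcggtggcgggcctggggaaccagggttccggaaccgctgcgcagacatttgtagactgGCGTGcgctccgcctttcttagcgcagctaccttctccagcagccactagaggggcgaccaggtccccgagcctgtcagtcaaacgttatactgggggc
Pgk1: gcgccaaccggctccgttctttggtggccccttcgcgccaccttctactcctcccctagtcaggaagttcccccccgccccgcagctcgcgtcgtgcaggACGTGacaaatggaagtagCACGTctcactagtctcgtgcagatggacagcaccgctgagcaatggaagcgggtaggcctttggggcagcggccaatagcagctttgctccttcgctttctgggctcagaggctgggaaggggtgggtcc
Ldha: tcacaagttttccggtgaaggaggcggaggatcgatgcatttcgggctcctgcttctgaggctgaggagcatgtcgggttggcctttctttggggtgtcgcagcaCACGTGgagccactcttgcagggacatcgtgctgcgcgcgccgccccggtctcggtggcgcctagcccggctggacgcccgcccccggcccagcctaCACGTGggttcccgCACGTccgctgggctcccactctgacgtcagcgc
Ldha held 5 core matches, 4 of them in 2 E-boxes, Slc2a1 and Pgk1 held 2 each, and Pfkl and Pfkfb3 held 1 each. The listed Pfkm window held 2 core matches, both in 1 E-box. A core match lay in 14 of the 17 windows, against 38.6% of all 32851 windows in the table and 57.0% of the windows of protein-coding genes above the dim limit. Overlapping windows of Pfkm shared a core match, which counts toward each of them. Per gene, at least 1 window held it in 10 of 10, against 41.5% of 27025 genes and 63.4% of 6226, but the 10 genes have more windows per gene than those sets. An E-box lay in 3 of 17 windows (1 each of Pfkm, Pfkfb3 and Ldha), against 6.0% and 8.8% of windows. The median GC content was 61.6% in the 17 windows, 52.4% over all windows and 60.8% for the protein-coding genes above the limit. Genes that rose and genes that fell both carried the core. Binding of any factor to these windows, and which start site these cells use, were not tested.

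Glucose entry was represented by Slc2a1, the widely expressed basal transporter. It lay at 5.16, 5.37 and 5.30 on the Con arrays, 5.65, 5.64 and 5.64 on the DOX arrays, and 5.69, 5.66 and 5.83 on the DOX_IFNg arrays. Every treated array lay above every Con array, and the 3 DOX arrays were nearly identical. The rise in DOX was 0.36 on the log2 scale (SE 0.07, 95% interval 0.21 to 0.52, adjusted p = 0.00749). Of 9 further genes of glucose entry, 1 was called, and it was not a transporter. Txnip, a protein that promotes removal of glucose transporters from the cell surface and is itself induced by glucose, lay at 7.46, 7.42 and 7.28 in Con and 10.1, 9.94 and 9.60 in DOX. It rose by 2.51 (SE 0.13, 5.68-fold, adjusted p = 1.24e-05), with no overlap of arrays. The insulin-responsive transporter Slc2a4 (4.74 in Con, 4.78 in DOX) and the high-affinity Slc2a3 (5.55 and 5.58) were not called (adjusted p of 0.70 and 0.71). The median difference of these 9 genes was 0.04.

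Neither hexokinase passed the test in DOX. Hk1, the widely expressed form, lay between 5.10 and 5.23 in Con, 4.93 and 5.0 in DOX, and 4.84 and 5.01 in DOX_IFNg. Its DOX arrays all lay below its Con arrays, but the difference of -0.17 (SE 0.06) did not pass (adjusted p = 0.107). Hk2, the insulin- and hypoxia-regulated form of muscle, lay between 6.17 and 6.28 in Con and 6.14 and 6.21 in DOX, and these ranges overlapped. Its difference was -0.05 (95% interval -0.17 to 0.07, adjusted p = 0.646). Within each array, Hk2 minus Hk1 changed by 0.13 (SE 0.05, exact two-sided permutation p = 0.2).

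The phosphofructokinase genes changed unequally. Pfkm, the muscle subunit, lay at 8.08, 7.97 and 8.36 on the Con arrays, 6.32, 6.25 and 6.32 on the DOX arrays, and 6.05, 6.15 and 6.23 on the DOX_IFNg arrays. All treated arrays lay far below the lowest Con array. The difference in DOX was -1.84 (SE 0.10, 95% interval -2.07 to -1.61, adjusted p = 1.57e-05). Pfkl, the liver-type subunit, lay at 6.01, 6.15 and 6.10 in Con, 5.45, 5.57 and 5.59 in DOX, and 5.49, 5.45 and 5.59 in DOX_IFNg. Its groups did not overlap between Con and either treatment, and the DOX difference was -0.55 (SE 0.06, adjusted p = 0.000569). Pfkp, the platelet-type subunit, lay between 4.71 and 4.82 in Con and 4.65 and 4.77 in DOX, near the dim limit throughout. Its difference was -0.07 (SE 0.05, adjusted p = 0.493), and a change of so dim a gene can be understated.

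Differences between paralogs within the same array compare their changes without comparing their levels. Pfkm minus Pfkl was 2.06, 1.82 and 2.26 on the Con arrays and 0.88, 0.68 and 0.73 on the DOX arrays, a change of -1.28 (SE 0.14). Pfkm minus Pfkp changed by -1.77 (SE 0.16), and Pfkp minus Pfkl by 0.49 (SE 0.07). In each of these 3 pairs the arrays of Con and DOX did not overlap. The exact two-sided permutation p was 0.1 for each, the smallest that 3 against 3 arrays can give, and 0.222 after Benjamini-Hochberg adjustment over 10 relations (5 pairs in 2 comparisons). Pfkm minus Pfkl was lower on every DOX array than on every Con array, and this permutation test cannot reach a p under 0.05 with 3 arrays per group.

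**Figure D2:**
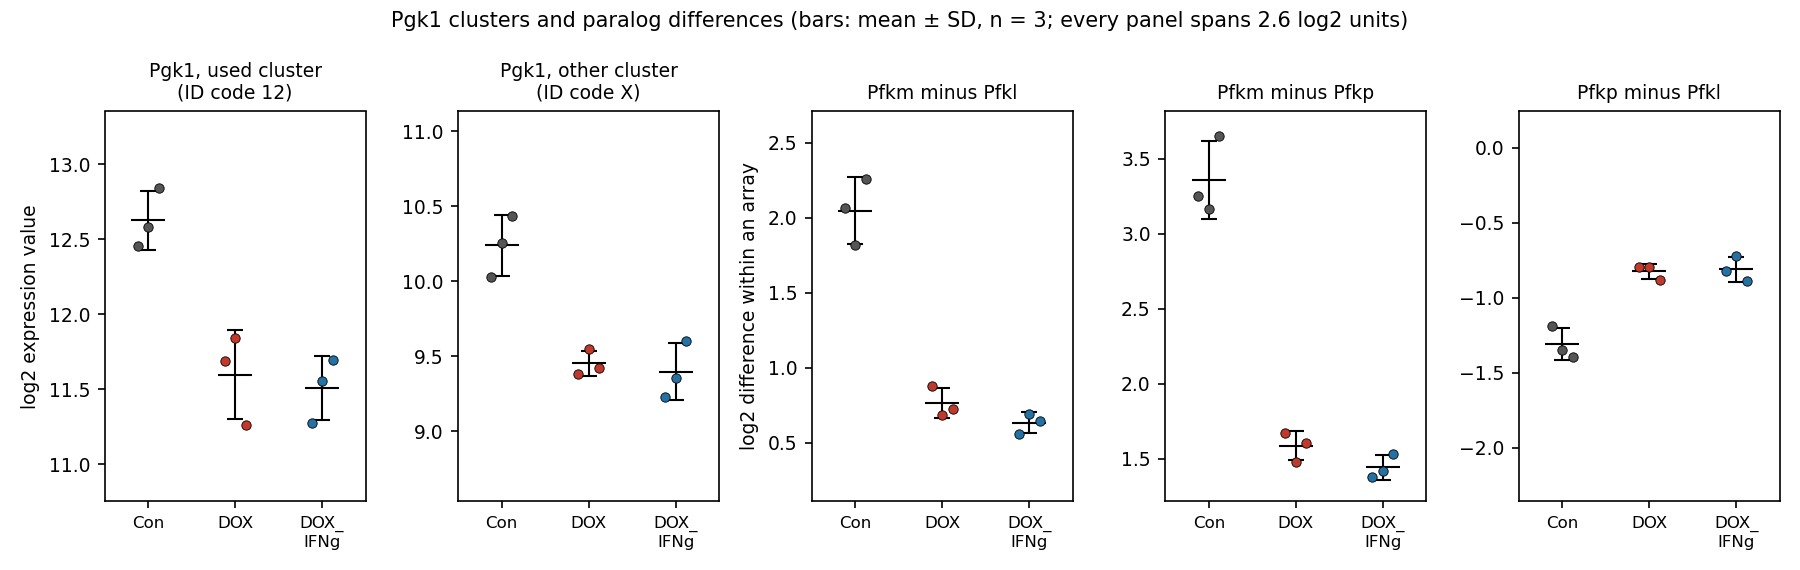
The first and second panels plot the log2 value of the Pgk1 clusters, and the others the log2 difference between phosphofructokinase paralogs within each array; dots are arrays in no order and bars the mean ± SD (n = 3). Both Pgk1 clusters are lower on all treated arrays than on all Con arrays, and Pfkm minus Pfkl drops from between 1.82 and 2.26 to between 0.68 and 0.88 in DOX.

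Pfkfb3, whose kinase activity dominates its phosphatase activity and which makes the activator of phosphofructokinase, moved the other way. It lay at 5.16, 5.25 and 5.05 in Con, 6.05, 6.15 and 6.07 in DOX, and 6.10, 6.09 and 6.02 in DOX_IFNg. The 6 treated arrays lay close together, above all Con arrays. The rise in DOX was 0.94 (SE 0.06, 95% interval 0.79 to 1.08, adjusted p = 3.3e-05). Of the enzymes that set the same metabolite, 2 more were measured. Tigar, which breaks it down (listed under its older symbol 9630033F20Rik), rose by 0.36 (SE 0.06, adjusted p = 0.00248), from 4.49 to 4.85, and Pfkfb4 fell by 0.19 (SE 0.05, adjusted p = 0.0319), from 5.04 to 4.85. The overall mean of Tigar lay just below the dim limit, so it was absent from the fit of genes above that limit. The call of Pfkfb4 ended on omitting any 1 of Con 1, Con 2, Con 3, DOX 1, DOX 2 and DOX_IFNg 2 (adjusted p up to 0.118). Pfkfb1 and Pfkfb2 were not analysed here.

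Pgk1 makes the first ATP of glycolysis and is a common reference gene. Its used cluster lay at 12.5, 12.6 and 12.8 in Con, 11.7, 11.8 and 11.3 in DOX, and 11.3, 11.6 and 11.7 in DOX_IFNg. Both treated groups lay below all Con arrays and overlapped each other, and the DOX difference was -1.03 (SE 0.17, 95% interval -1.42 to -0.64, adjusted p = 0.00382). The identifier of that cluster carries the chromosome code 12, whereas RefSeq places Pgk1 on chromosome X and a Pgk1 pseudogene, Pgk1-rs7, on chromosome 12. For 99.8% of 28931 genes the code equalled the RefSeq chromosome, so which transcript the used cluster measured is uncertain. The dimmer Pgk1 cluster, coded X, lay at 10.0, 10.3 and 10.4 in Con, 9.39, 9.55 and 9.42 in DOX, and 9.23, 9.35 and 9.60 in DOX_IFNg. It was lower in DOX as well, by -0.79 (SE 0.12, 1.72-fold, adjusted p = 0.00277 when put in place of the other).

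Pkm, pyruvate kinase of muscle and dividing cells, did not pass the test. It lay between 6.51 and 6.62 in Con and 6.58 and 6.83 in DOX, a difference of 0.16 (95% interval -0.03 to 0.35, adjusted p = 0.279). The cluster does not separate the M1 and M2 splice forms. Ldha, the lactate dehydrogenase subunit that favours lactate formation, lay at 5.77, 5.90 and 5.93 in Con, 5.20, 5.27 and 5.21 in DOX, and 5.20, 5.25 and 5.30 in DOX_IFNg. All treated arrays lay below all Con arrays, and the DOX difference was -0.64 (SE 0.06, 95% interval -0.77 to -0.51, adjusted p = 0.000155). Ldhb, the heart-type subunit, fell too, by 0.48 (SE 0.10, adjusted p = 0.0125), from 8.06 to 7.58, a call that ended with a term for the set of arrays sharing identical values (adjusted p = 0.0641). Ldhb minus Ldha changed by 0.16 within arrays (SE 0.09, exact permutation p = 0.2, where 0.1 is the smallest possible), and the arrays of Con and DOX overlapped. Slc16a1, the transporter MCT1 that carries lactate and pyruvate across the membrane, rose by 0.59 (SE 0.06, adjusted p = 0.000272), the only call among 5 transport genes.

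The arrays sharing many identical values held every DOX array but only Con 1 of Con, so this set is partly confounded with DOX against Con. The other set held no DOX array and gives DOX_IFNg against Con instead. The 6 genes differed from Con in the same direction within each set. This direction was fixed in advance, because the treated and Con arrays of these genes did not overlap. It therefore says nothing about the part of the set, and only the sizes are given. Among the arrays sharing many, the DOX mean minus Con 1 was -1.78 for Pfkm, -0.48 for Pfkl, -0.55 for Ldha, 0.48 for Slc2a1 and 0.93 for Pfkfb3. For Pgk1 it was -0.855 by the used cluster and -0.58 by the X cluster. Among the others, DOX_IFNg 3 minus the mean of Con 2 and Con 3 was -1.93, -0.54, -0.61, 0.49 and 0.87 in that order, and -1.02 and -0.74 for the Pgk1 clusters. These values rest on 1 array on at least 1 side and have no test.

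Markers of cell state moved in the same comparison. Dividing-cell markers fell in 5 of 5 cases, among them Plk1 (-2.79) and Mcm6 (-2.63), and their summed level fell from between 10.1 and 10.2 in Con to between 7.66 and 7.97 in DOX (log2 of the sum). Skeletal muscle markers had 4 lower and 2 higher of 11, with a summed level of 9.74 to 9.97 in Con and 8.97 to 9.16 in DOX; Myog fell by 3.42 and Myod1 rose by 0.76. Omitting Con 1, Con 3, DOX 1 or DOX 2 ended the call of Myod1 (adjusted p up to 0.0715), and omitting Con 1, Con 2, DOX 1 or DOX 2 that of Des, the other higher marker (adjusted p up to 0.0942), so that 0 were higher without Con 1, DOX 1 or DOX 2. Tnnt2 (-1.24) was the only call among 11 cardiomyocyte markers, whose summed level was 8.75 to 8.91 in Con and 8.28 to 8.33 in DOX. Their median difference was 0.01. The sums add unlogged values, so the brightest genes of a list weigh most. In Con these were Tnnt2 here, Plk1 among dividing-cell markers, and Acta1 and Myog among skeletal muscle markers. Fibroblast markers had 5 lower and 1 higher of 8. The higher one, Thy1, did not pass once Con 2, DOX 2 or DOX 3 was omitted (adjusted p up to 0.0799). The overall means of Thy1 and Des lay below the dim limit. Among the fibroblast markers, the sum was formed in the same way. The summed level of the fibroblast markers, 17.7 to 18.0 in Con and 16.7 to 16.8 in DOX, was set almost wholly by the collagen gene Col1a1. The part of these in the changes of Pfkm and the other genes was not tested. In bulk RNA, fewer cells of a type and less RNA per cell cannot be told apart.

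The remaining steps of glycolysis did not move as a block. Of 14 measured genes outside the 10, 2 were called higher, 3 lower and 9 did not pass, with a median difference of -0.04. Tpi1, triose phosphate isomerase, fell by 0.66 (SE 0.08, adjusted p = 0.000785), Eno2, the neuronal enolase, rose by 0.55 (SE 0.07, adjusted p = 0.000902), and Adpgk, which phosphorylates glucose with ADP, rose by 0.58 (SE 0.12, adjusted p = 0.0103), the last of which did not pass with that term (adjusted p = 0.0568). Ldhb and Minpp1 were the other lower genes, Minpp1 by -0.28. Minpp1 no longer passed once Con 1, Con 2, DOX 1 or DOX 3 was omitted (adjusted p up to 0.0851). Gapdh lay at 7.93 in Con and 7.90 in DOX, Aldoa at 8.16 and 8.10, and Pgam1 at 8.89 and 8.87, none of them called. The muscle forms Pgam2 and Eno3 were not called either, with differences of -0.08 and -0.15.

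**Figure D3:**
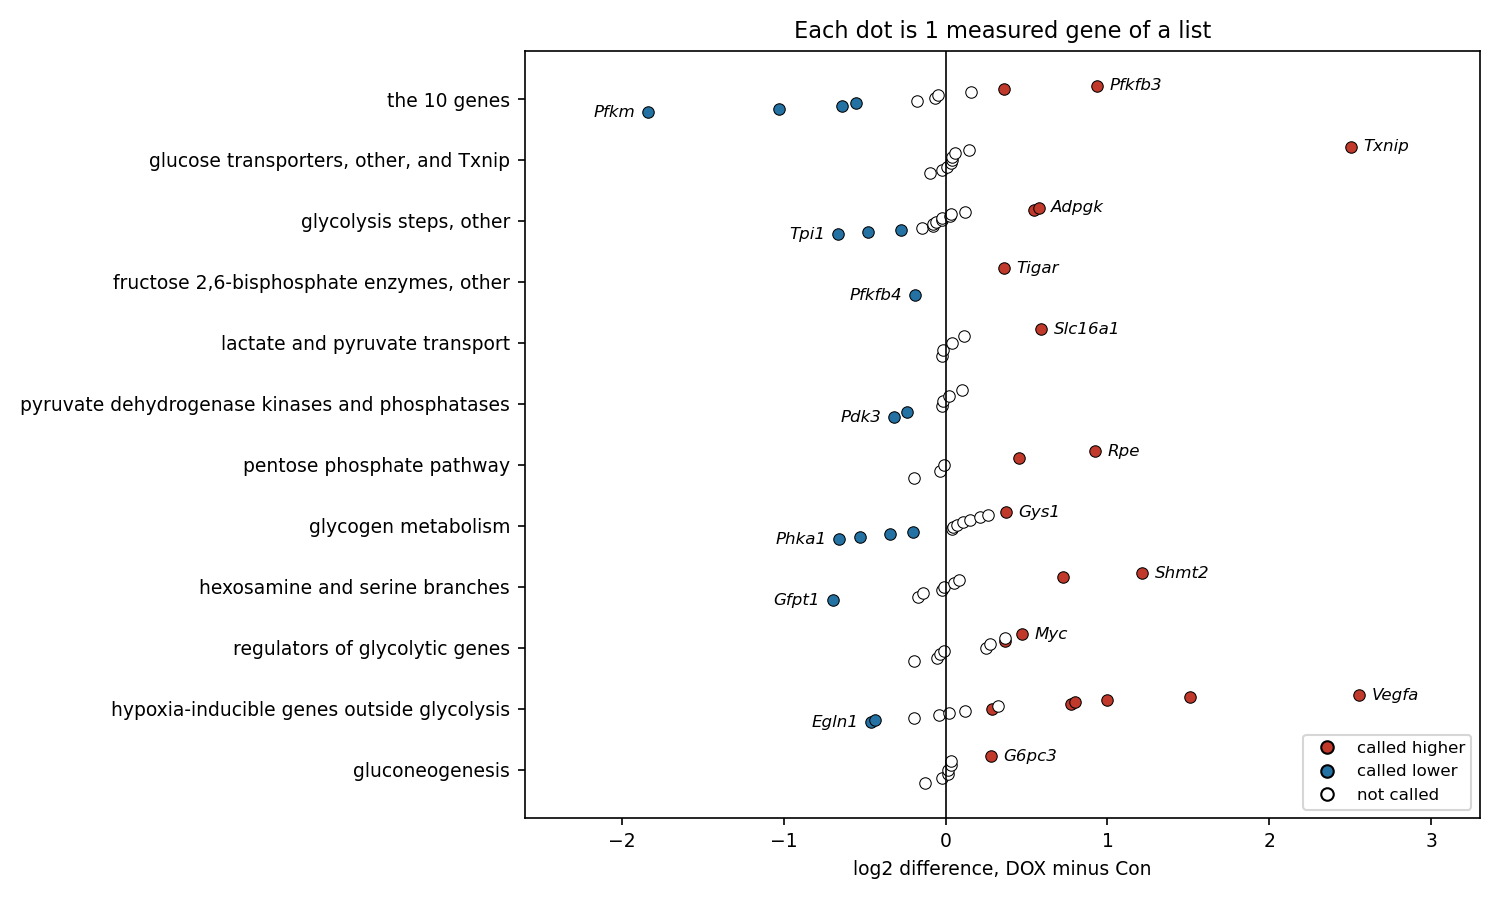
Log2 difference DOX minus Con (horizontal axis) of each measured gene in the 10 genes and 11 further lists (vertical axis); filled dots passed the test, red higher and blue lower, and open dots did not. The largest differences among these lists are those of Vegfa (2.55) and Txnip (2.51) upward and Pfkm (-1.84) downward, and most open dots lie near 0.

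Branches off glycolysis held calls in both directions. In the pentose phosphate pathway 2 of 5 genes rose, Rpe by 0.92 (SE 0.17, adjusted p = 0.00592) and Rpia by 0.45 (SE 0.07, adjusted p = 0.00341), both of which interconvert pentose phosphates. G6pdx and Tkt of this pathway were not analysed here. In glycogen metabolism 1 of 12 rose and 4 fell: the synthase Gys1 rose by 0.37, while Phka1, the muscle phosphorylase kinase subunit, fell by 0.66, Pgm2 by 0.53, the phosphorylase Pygb by 0.35 (signed -0.345) and the branching enzyme Gbe1 by 0.20. Gbe1 no longer passed once Con 2, DOX 2 or DOX 3 was omitted (adjusted p up to 0.0742). Of 9 genes of the hexosamine and serine branches, Shmt2 rose by 1.22 (signed 1.215) and Psph by 0.73, and Gfpt1, the entry enzyme of hexosamine synthesis, fell by 0.70. Of 6 pyruvate dehydrogenase kinases and phosphatases, the kinases Pdk3 (-0.32) and Pdk2 (-0.24) fell, the latter not when DOX 2 was omitted (adjusted p = 0.0641). Of 7 gluconeogenesis genes G6pc3 alone was called (0.28), and it no longer passed once Con 1, Con 2, DOX 1 or DOX 3 was omitted (adjusted p up to 0.103).

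Among the regulators of these genes, 2 of 9 were called higher and 0 lower, with a median difference of 0.25. Myc, which drives glycolytic genes in growing cells, lay at 4.57, 4.81 and 4.89 in Con and 5.14, 5.41 and 5.13 in DOX, a rise of 0.47 (SE 0.12, adjusted p = 0.0274). Omitting any 1 of Con 1, Con 2, DOX 1 and DOX 2 ended that call (adjusted p up to 0.0892). Sp1 rose by 0.37 (SE 0.07, adjusted p = 0.00877), but not with the term for the set of arrays (adjusted p = 0.0519). Hif1a, the oxygen-regulated factor behind many glycolytic genes, lay at 5.74, 5.62 and 5.29 in Con and 5.91, 5.86 and 5.998 in DOX, which did not pass (0.37, SE 0.15, adjusted p = 0.162). Its activity is set mainly at the protein level, which arrays do not measure. The regulators Trp53 and Esrra were not analysed here.

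Hypoxia-inducible genes outside glycolysis had 6 higher, 2 lower and 5 not passing of 13, with a median difference of 0.29. Vegfa, a growth factor for blood vessels, rose by 2.55 (SE 0.10, 5.87-fold, adjusted p = 5.57e-06), Ddit4, an inhibitor of mTORC1, by 1.51 (SE 0.21, adjusted p = 0.00138), the collagen prolyl hydroxylase subunit P4ha1 by 1.00 (SE 0.10, adjusted p = 0.000243) and the mitophagy receptor Bnip3 by 0.80 (SE 0.14, adjusted p = 0.00458). Kdm3a (0.77) and Mxi1 (0.29) were also higher. Mxi1 no longer passed once Con 1, Con 2, DOX 2 or DOX 3 was omitted (adjusted p up to 0.0754). The lower genes were Car9, a carbonic anhydrase (-0.44), and Egln1, an oxygen-sensing prolyl hydroxylase (-0.46). Egln1 no longer passed once Con 1, DOX 1 or DOX 3 was omitted (adjusted p up to 0.0674). Slc2a1 and Pfkfb3 rose in the same cells as Vegfa, while Pgk1 and Ldha, also known HIF targets, fell. Whether HIF had a part in any of these changes was not tested.

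The genes whose values followed the 2 extreme members most closely were found among 18255 protein-coding genes by the root mean square difference between mean-centred log2 values over the 9 arrays. For Pfkm these were Itga5, an integrin chain (0.08), Rcn3 (0.12) and Ahcy, an enzyme of the methionine cycle (0.13), which differed in DOX by -1.75, -1.74 and -2.02. For Pfkfb3 they were Kdm4c, a histone demethylase (0.05), Abca1, a cholesterol exporter (0.06), and Tcirg1, a vacuolar ATPase subunit (0.06), which rose by 0.88, 1.02 and 1.04. With 3 groups of which 2 lay close together, many genes can share such a profile.

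With interferon gamma on top of doxorubicin, no change was called in any of the 10 genes. Over all genes 0% were called by limma, with the smallest adjusted p at 0.506, while 5% of genes had an unadjusted p under 0.05. Of the 10 genes, 0 had an unadjusted p under 0.05, and the adjusted p lay between 0.976 and 0.996. None was called in any of the 18 alternative settings. The largest difference was that of Pfkm, at -0.16 (SE 0.10, 95% interval -0.38 to 0.07), whose DOX_IFNg arrays all lay below its DOX arrays. Slc2a1 lay higher on each DOX_IFNg array than on each DOX array, by 0.09 (SE 0.07, 95% interval -0.07 to 0.24). Groups without overlap were thus seen for 2 of 10 genes, against 11.2% of all genes, dim ones included. The 95% intervals of the other 8 genes differed in width: that of Pgk1 was the widest, from -0.48 to 0.30, while that of Ldha reached from -0.11 to 0.16 and that of Pfkp from -0.13 to 0.11. Changes within a gene's own interval cannot be told from none here. The within-array change of Ldhb minus Ldha was -0.29 (SE 0.09, exact permutation p = 0.1, the smallest possible, adjusted p = 0.222), without overlap of arrays. None of the genes in the further pathway lists was called, Ldhb (-0.27; signed -0.265, unadjusted p = 0.0288) and Eno3 (-0.21, unadjusted p = 0.0261) included.

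**Figure D4:**
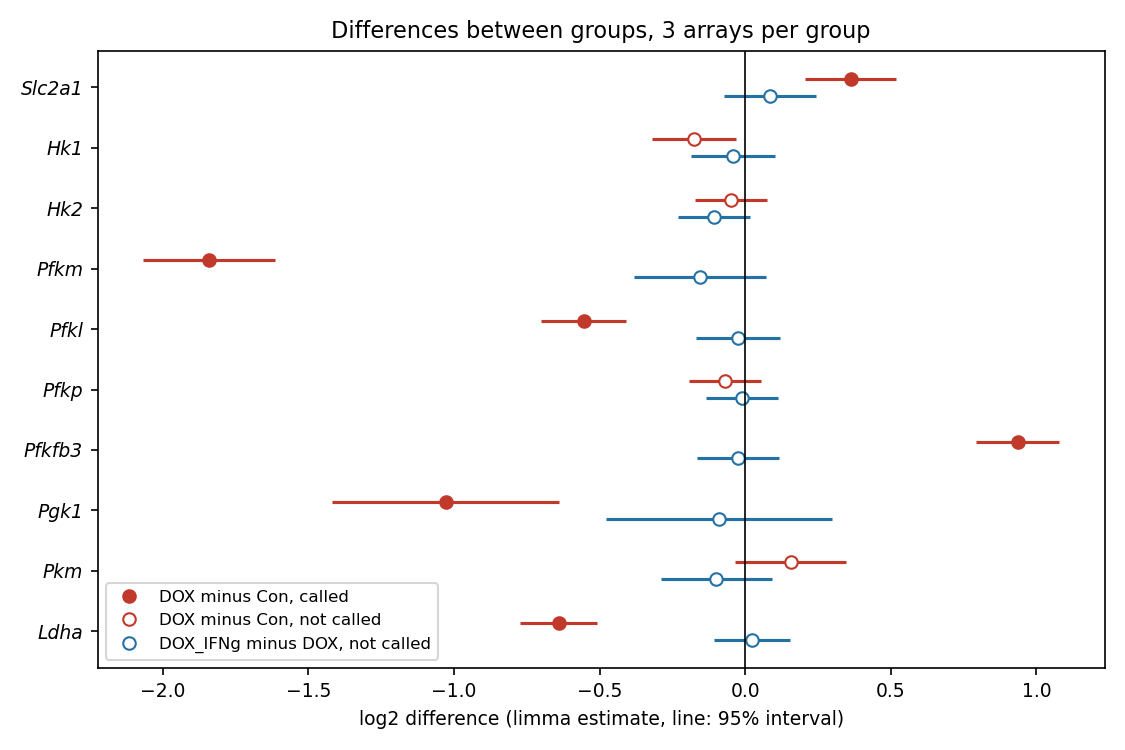
Log2 difference (horizontal axis) of the 10 genes (vertical axis) for DOX minus Con in red and DOX_IFNg minus DOX in blue, with lines for the 95% interval from limma; filled dots passed the test. Pfkm (-1.84), Pgk1 (-1.03), Ldha (-0.64) and Pfkl (-0.55) lie to the left and Pfkfb3 (0.94) and Slc2a1 (0.36) to the right in DOX minus Con, while every interval of DOX_IFNg minus DOX spans 0.

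Against the same Con arrays, DOX_IFNg cells had 2 of the 10 genes called higher and 5 lower. Over all genes 17.4% were called, 8.01% higher and 9.41% lower, and of genes above the dim limit 36.8%. The groups did not overlap for 8 of the 10 genes and 33.0% of all, dim genes included. Both comparisons use the same Con arrays and are therefore given side by side. Pfkm differed by -1.995 in DOX_IFNg and -1.84 in DOX, Pgk1 by -1.12 and -1.03, Ldha by -0.62 and -0.64, and Pfkl by -0.58 and -0.55. Pfkfb3 differed by 0.91 and 0.94, and Slc2a1 by 0.45 and 0.36. The additional call was Hk1, at -0.22 (SE 0.06, adjusted p = 0.048), against -0.17 in DOX. That call ended on omitting any 1 of the 9 arrays other than DOX_IFNg 3 (adjusted p up to 0.147), and in a fit of only the groups compared (adjusted p = 0.103). Hk2 (-0.16, adjusted p = 0.0874), Pfkp and Pkm were not called. Hif1a passed in this comparison (0.61, SE 0.15, adjusted p = 0.0266), but its difference between DOX_IFNg and DOX did not (0.24, SE 0.15).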

How the data were processed

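The deposited table held log2 expression values of 65527 transcript clusters on 9 Affymetrix arrays. The submitters' processing notes name RMA, with version and settings not given in the sources used here. RMA compresses differences between dim probes. Their range, 2.29 to 19.9, is that of a log2 scale, which no source states. The platform annotation gave a single symbol for 30376 clusters, several for 2117, and did not list 33034. The single-symbol clusters gave 30050 genes. Symbols of 245 genes had several clusters, of which the brightest was used. No further normalization or filter was applied.

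Group means of all 9 arrays were fitted with limma 3.58.1 (lmFit, eBayes) in R 4.3.3, with 6 residual and 2.41 prior degrees of freedom. Tests were two-sided, and Benjamini-Hochberg adjustment covered 30050 genes per comparison. Genes were called at an adjusted p under 0.05. The procedure was tested on simulated data. Paralog differences were tested by exact permutation over arrays. The labels do not say that replicates were separate cultures, so the p-values reflect array-to-array spread alone, possibly of technical origin. Precision is limited by the 3 arrays per group.

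The 10 genes and the gene lists were chosen with earlier results of these data known. Named were all 10 genes, up to 4 called genes of each list by size of change, some regulators and markers, and the 3 most similar profiles of 2 genes. The further named members of short counts (Gbe1, Minpp1, Car9, Egln1, Kdm3a, Mxi1, Des, Thy1, Col1a1, Cd14), Eno3, and the uncalled genes given for context were chosen after their values were seen. The alternatives were quantile normalization, median centring of arrays, a filter at the dim limit, only the groups compared, a replicate block, eBayes with trend and robust options, the mean of a gene's clusters and leaving out each array. The X-coded Pgk1 cluster and a term for the set of arrays sharing few values were added after the data were seen.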

Additional observations from a re-analysis of the deposited data

How the results depend on the processing

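In DOX minus Con, each of the 10 genes kept its direction and its side of the threshold in all 18 alternative settings, with Pfkm between -1.92 and -1.73, Pgk1 between -1.15 and -0.70, Slc2a1 between 0.30 and 0.47 and Pfkfb3 between 0.89 and 0.98. In DOX_IFNg minus Con, 13 of 180 values changed their call, and each was Hk1, among them quantile normalization (-0.20, adjusted p = 0.0738), median centring (-0.18, adjusted p = 0.088) and the term for the set of arrays (-0.18, adjusted p = 0.0892). In DOX_IFNg minus DOX, no gene of the 10 was called, and 12 of 180 values, each near 0, turned sign. With the set of arrays as a term, Pfkp was 0.0011 and Ldha -0.0124. Over the fits leaving out 1 array, Hk1 ranged from -0.0803 to 0.0055, Pfkl from -0.0683 to 0.0044, Pfkp from -0.0413 to 0.0195, Pfkfb3 from -0.0431 to 0.0053, Pgk1 from -0.26 to 0.0317 and Ldha from -0.0019 to 0.0496, and Pfkp minus Pfkl from -0.0306 to 0.0525. The count of all genes called lower there ranged from 0 to 1 (1 without Con replicate 3). The cause was not tested.

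Quantile normalization moved the share of higher genes among all called genes from 51.7% to 61.7% in DOX minus Con and from 46.0% to 57.5% in DOX_IFNg minus Con. The term for the set of arrays ended the calls of Ldhb, Adpgk, Pgm2 (adjusted p = 0.0791) and Sp1 in DOX minus Con. It also ended those of Minpp1, Pfkfb4, Pdk2, Gbe1, Egln1, G6pc3, Mxi1, Des, Thy1 and the immune marker Cd14, which likewise ended on omitting single arrays. Median centring ended the calls of Minpp1, Pfkfb4 and Gbe1. A fit of only the groups compared ended those of Minpp1, Pfkfb4, G6pc3, Mxi1, Des, Thy1 and Cd14. The replicate block, and the trend and robust options, each ended that of Cd14. The replicate numbers did not clearly pair the arrays. Deviations of same-numbered arrays correlated between -0.31 and 0.55, and those of differently numbered arrays between -0.58 and 0.43. Of the 9 arrays, 4 correlated best with their own number. Whether the numbers mark pairs is not settled by these values. With the replicate block, 2270 genes were called higher and 2202 lower in DOX minus Con, and the block changed 1 call among the 10 genes, that of Hk1 in DOX_IFNg minus Con (adjusted p = 0.0709).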
